A study of Mus musculus with 24 samples.

Results

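Csf1r encodes the receptor tyrosine kinase CSF1R, and Csf1 and Il34 encode its ligands. These genes were taken from the deposited table by their probe names. They are 3 of its 770 genes, and all 3 passed the filter on low values that kept 621 genes (a gene had to reach a normalized value of 20 in 4 or more of the 24 samples). The samples were mammary tumours grown in female neu-N mice on the FVB background, which carry a neu transgene under the mammary tumour virus promoter. The mice, aged 7 to 8 weeks, received 50000 NT2.5 cells in the mammary fat pad, a single line made from a spontaneous tumour of that gland. Treatment began 3 days later and lasted 3 weeks. RNA was counted on the nCounter platform, in which a barcoded probe binds each transcript and the barcodes are counted without amplification.

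All treated arms shared entinostat (ENT), which inhibits histone deacetylases of class I and was given by mouth each day at 5 mg/kg in methylcellulose. The arms with 4 samples each were ENT alone, ENT with anti-PD-1 (ENT+PD1), ENT with anti-CTLA-4 (ENT+CTLA4), and ENT with both checkpoint antibodies (ENT+PD1+CTLA4). ENT with anti-CTLA-4 and anti-HER2 (ENT+CTLA4+HER2) had 2 samples. A further 2 samples carry the titles of ENT+PD1 replicates 1 and 2 again, and they are called the repeat-titled pair. Vehicle mice (4 samples) received methylcellulose and isotype antibodies in place of the drugs. Anti-PD-1 and anti-CTLA-4 were given 2 times a week and anti-HER2 1 time a week, each at 100 µg per mouse. The protocol says that studies in these mice ran with and without anti-HER2, and only the sample titles were used to group them here. The sources name whole tumours, while the extraction protocol ends with single-cell suspensions for isolating immune cells, so the cells behind the RNA are not settled here. The labels do not tie samples to separate animals, so the p-values reflect only how much these samples vary, which may be technical.

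CSF1R sits on monocytes, macrophages and their precursors, and signalling through it supports their survival, proliferation and differentiation. CSF1 and IL-34 bind the same receptor but share little sequence. CSF1 is made by many stromal, endothelial, epithelial and immune cells, whereas IL-34 is best known from keratinocytes and neurons, where it maintains Langerhans cells and microglia. In mammary tumours the CSF1 axis is known for recruiting and sustaining tumour-associated macrophages.

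Recovered totals ran from 226863 to 483418 counts per sample, and the factors that scale counts to normalized values ran from 0.774 to 1.70. The file headers list 2 cartridges with 12 samples each. ENT+PD1, ENT and vehicle ran on the first, and the anti-CTLA-4 arms ran on the second with the repeat-titled pair. For any anti-CTLA-4 arm against vehicle, ENT or ENT+PD1, treatment and cartridge therefore cannot be told apart. ENT+PD1 replicates 5 and 6 stood apart from replicates 1 and 2. The median over all 770 genes was 86.0 and 93.4 in replicates 5 and 6, against 51.7 and 50.6 in replicates 1 and 2. The log2 changes and list medians of the main fit for ENT+PD1 are printed with and without replicates 5 and 6. Values after rescaling to a common median or relative to the macrophage markers are given only with them. Of the 22 macrophage and monocyte markers measured, 21 were kept, and their summed level per sample ran from 6154 to 33021 normalized counts. All 8 epithelial and tumour genes measured and all 14 fibroblast and endothelial markers were kept, and the epithelial list summed to 6087 to 11145.

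The receptor was well measured in every tumour. Csf1r had 226 to 1223 recovered counts, which was 31.6 to 194 times the mean of the negative control probes of the sample. Its normalized value had a median of 487 over the 24 samples, with a lowest value of 275 and a highest of 1269. Csf1 was as widely detected, with 194 to 486 counts and normalized values from 206 to 510 (median 336). Il34 had the fewest counts of the 3, with 30 to 139 counts and values from 51.0 to 120 (median 92.6), still 6.49 to 27.1 times the negative controls. Each gene exceeded the negative control mean by 2 SD in 24 of 24 samples. Probes differ in efficiency, so these levels do not rank the transcripts against each other.

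The genes also differed in how much they varied. Over the 22 samples of the 6 groups tested, the SD of log2(value + 1) was 0.51 for Csf1r, 0.33 for Csf1 and 0.29 for Il34, against a median of 0.46 over the 621 genes. Within groups the SD was 0.54 for Csf1r, 0.29 for Csf1 and 0.18 for Il34, against a median of 0.40. Ranked by within-group SD among the 621 genes, Il34 was at percentile 15.0, Csf1 at 35.1 and Csf1r at 70.7.

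Csf1r measured 354, 394, 1009 and 1269 in ENT+PD1, 379, 468, 433 and 458 in ENT, 649, 275, 672 and 550 in ENT+PD1+CTLA4, and 485, 477, 601 and 697 in ENT+CTLA4. It measured 627 and 542 in ENT+CTLA4+HER2, 313 and 432 in the repeat-titled pair, and 313, 488, 683 and 570 in vehicle. The highest values were those of ENT+PD1 replicates 5 and 6, and the lowest was ENT+PD1+CTLA4 replicate 2. The mean ± SD was 756 ± 455 in ENT+PD1, 585 ± 59.9 in ENT+CTLA4+HER2, 565 ± 105 in ENT+CTLA4, then 537 ± 182 in ENT+PD1+CTLA4, 434 ± 39.8 in ENT, 372 ± 84.4 in the repeat-titled pair and 513 ± 156 in vehicle (n = 4, or 2 for the repeat-titled pair and ENT+CTLA4+HER2). With the arms ranked by mean, vehicle stood between ENT+PD1+CTLA4 and ENT. No neighbours in that ranking differed by more than the larger of their SDs, and their ranges overlapped.

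Csf1, the ligand first known as macrophage colony-stimulating factor, measured 239, 327, 435 and 504 in ENT+PD1, 263, 306, 250 and 269 in ENT, 349, 206, 385 and 349 in ENT+PD1+CTLA4, and 345, 316, 355 and 360 in ENT+CTLA4. It measured 433 and 510 in ENT+CTLA4+HER2, 253 and 284 in the repeat-titled pair, and 268, 332, 357 and 340 in vehicle. The same ENT+PD1 replicates were high and the same ENT+PD1+CTLA4 replicate was low as for Csf1r, and the ENT+CTLA4+HER2 samples were also high. The mean ± SD was 472 ± 54.2 in ENT+CTLA4+HER2, 376 ± 117 in ENT+PD1, then 344 ± 19.97 in ENT+CTLA4, then 322 ± 79.2 in ENT+PD1+CTLA4, 272 ± 23.8 in ENT, 268 ± 21.96 in the repeat-titled pair and 325 ± 38.7 in vehicle. In the ranking of means vehicle stood just above ENT+PD1+CTLA4, and again no neighbours differed beyond the larger SD.

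Il34, the second ligand, measured 98.8, 90.6, 97.1 and 113 in ENT+PD1, 71.9, 89.8, 83.7 and 92.0 in ENT, 67.1, 94.3, 113 and 93.0 in ENT+PD1+CTLA4, and 101, 91.7, 92.2 and 94.8 in ENT+CTLA4. It measured 51.0 and 60.7 in ENT+CTLA4+HER2, 60.9 and 78.4 in the repeat-titled pair, and 99.7, 97.0, 99.9 and 120 in vehicle. The ENT+CTLA4+HER2 samples were the lowest of all 24, although the first sample of the repeat-titled pair lay close above them. The mean ± SD was 99.9 ± 9.48 in ENT+PD1, then 94.8 ± 4.08 in ENT+CTLA4, then 91.8 ± 18.8 in ENT+PD1+CTLA4, 84.4 ± 9.02 in ENT, 69.7 ± 12.4 in the repeat-titled pair, 55.8 ± 6.86 in ENT+CTLA4+HER2 and 104 ± 10.6 in vehicle. Vehicle ranked highest. The gaps between ENT and the repeat-titled pair and between that pair and ENT+CTLA4+HER2 exceeded the larger SD, and no other neighbouring gap did.

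**Figure D1:**
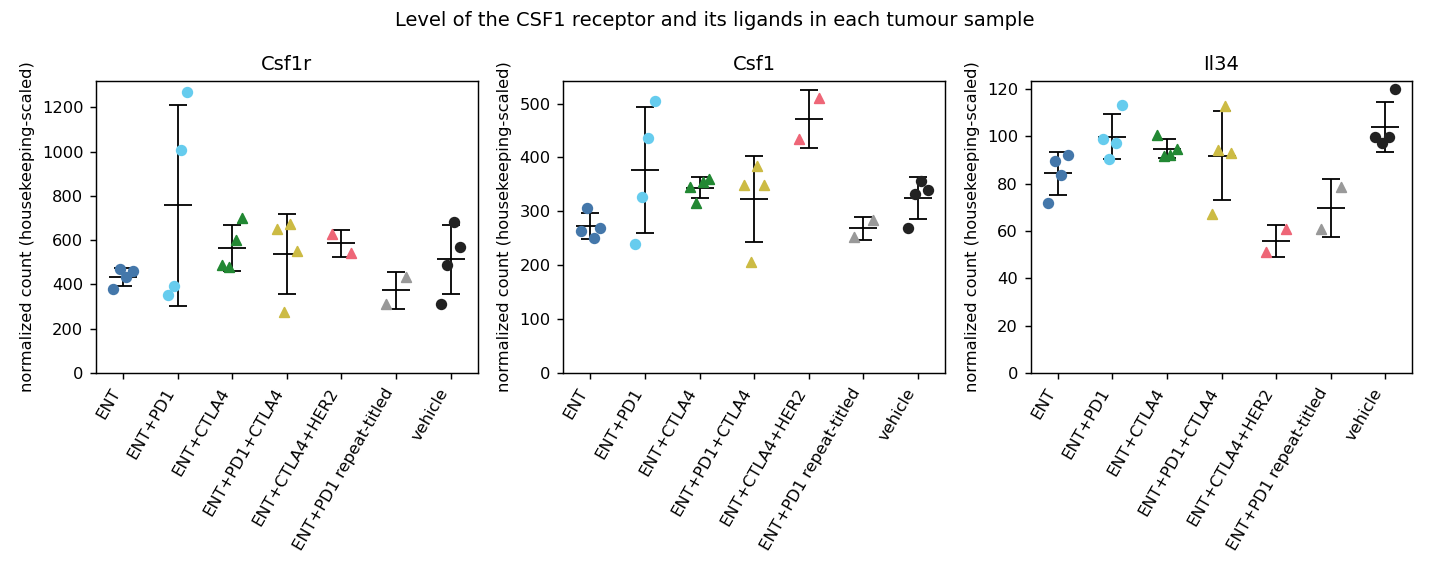
Normalized count of Csf1r, Csf1 and Il34 (linear axes from 0) in each of the 24 tumour samples by arm, with the mean and SD of each arm as bars; circles ran on the first cartridge and triangles on the second. The ENT+PD1 samples split into a low and a high pair for Csf1r (354 and 394, then 1009 and 1269), and the ENT+CTLA4+HER2 samples have the lowest Il34 values (51.0 and 60.7).

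Adding anti-HER2 to entinostat and anti-CTLA-4 gave the only call among the 3 genes in any of the 10 comparisons. Il34 fell in ENT+CTLA4+HER2, with 51.0 and 60.7 normalized counts against 101, 91.7, 92.2 and 94.8 in ENT+CTLA4. The log2 change was −0.76 ± 0.17 (SE), with a 95% interval from −1.12 to −0.39, and the limma adjusted p was 0.0310. On the fitted scale this is 40.8% lower. The values did not overlap, and both arms ran on the second cartridge. In this comparison 14 of 621 genes were called (2.25%), 6 of them lower (0.966%), and 28.8% of genes had values that did not overlap, so separation alone was common. The repeat-titled pair, on the same cartridge and titled without anti-HER2, had Il34 at 60.9 and 78.4. ENT+PD1 replicates 1 and 2, whose titles it repeats, had 98.8 and 90.6 on the first cartridge. As all are bulk samples, fewer cells of a type and less RNA per cell cannot be told apart.

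The fall in Il34 rests on few counts. The ENT+CTLA4+HER2 samples had 30 and 47 recovered counts of Il34, and the exact Poisson 95% intervals of their normalized values, which cover counting error only, ran from 34.4 to 72.8 and from 44.6 to 80.7. The total counts of these samples were 226863 and 311822, against 346883 to 483418 in ENT+CTLA4, and their scaling factors were 1.70 and 1.29, against 0.777 to 1.04. The scaled negative control mean was 7.86 and 6.62 in ENT+CTLA4+HER2, against 3.59 to 5.47 in ENT+CTLA4. The log2 change was larger under another scaling (−0.87 after rescaling to a common median), and the part of depth in the result was not tested.

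The call depended on the processing, while the direction did not. The log2 change ran from −0.95 to −0.63 over all settings. The limma adjusted p was 0.126 after rescaling each sample to the same median, 0.129 after quantile normalization and 0.191 in a fit of these 2 arms alone. It was 0.0983 with the replicate number as a block and 0.0582 with the repeat-titled pair joined to ENT+PD1 without a block. It was 0.131 without ENT+CTLA4+HER2 replicate 1, 0.0624 without replicate 2, and 0.0611, 0.0702 and 0.0711 without ENT+CTLA4 replicates 2, 5 and 6. Without ENT+CTLA4 replicate 1 it was 0.0331. With the pair joined and the cartridge as a block the limma adjusted p was 0.0284. It was 0.0383 without the filter on low values and 0.0287 with a pseudocount of 8. The count models kept the call, with adjusted p = 0.0434 in edgeR and 0.0353 in DESeq2, where the log2 changes were −0.93 and −0.92.

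**Figure D2:**
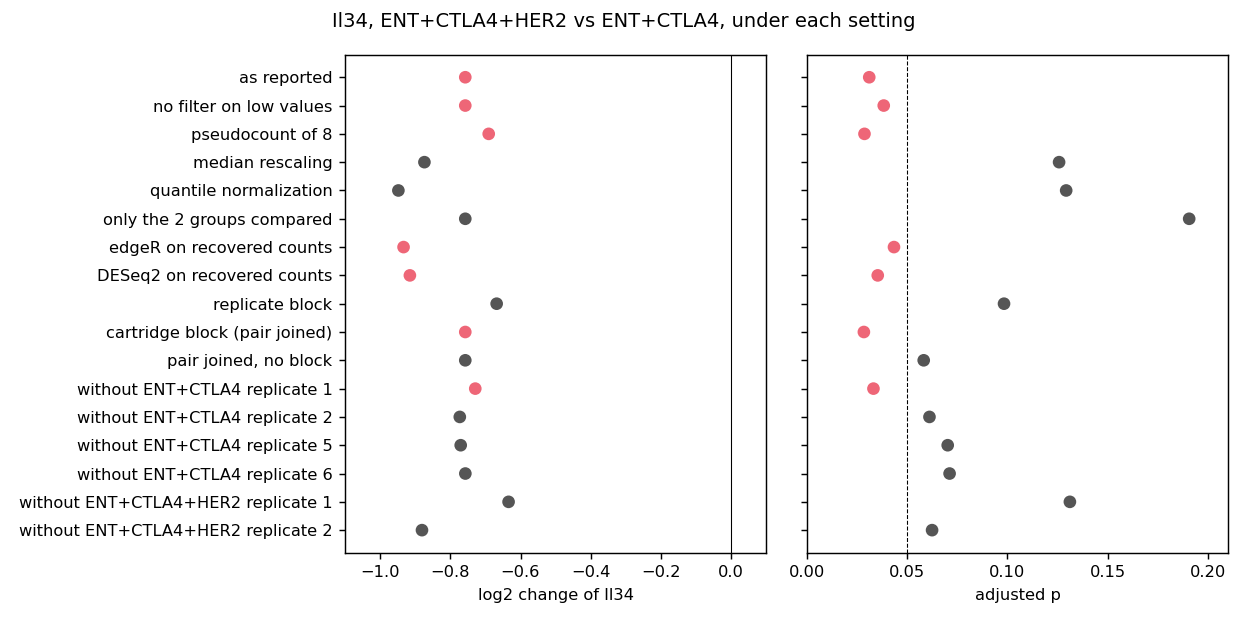
log2 change of Il34 in ENT+CTLA4+HER2 against ENT+CTLA4 (left) and its adjusted p (right) under each processing setting and with each sample left out, with a dashed line at 0.05 and settings that keep the call in red. All log2 changes lie between −0.95 and −0.63, while the adjusted p crosses the line, reaching 0.191 in the fit of these arms alone.

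The receptor and the other ligand did not pass in the same comparison. Csf1 measured 433 and 510 in ENT+CTLA4+HER2 against 345, 316, 355 and 360 in ENT+CTLA4. These values did not overlap, but the log2 change of 0.45 ± 0.25 had a limma adjusted p of 0.338. Csf1r had a log2 change of 0.06 ± 0.44 with an interval from −0.86 to 0.98 and a limma adjusted p of 0.971, which leaves a wide range of differences undetectable with 2 samples. The median of all genes was 0.17 higher in ENT+CTLA4+HER2, and under the rescaling to a common median the log2 changes were −0.87 for Il34, 0.33 for Csf1 and −0.06 for Csf1r. Relative to the receptor within each sample, log2 Il34 minus log2 Csf1r was −3.59 and −3.14 in ENT+CTLA4+HER2, against −2.87 to −2.26 in ENT+CTLA4. These did not overlap, and the difference of −0.82 reached the smallest p that 2 against 4 samples allow in a two-sided exact permutation test (p = 0.0667, adjusted p = 0.929 over 20 such comparisons).

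Other factors of the myeloid growth factor family were measured beside the CSF1 axis, and 9 of 13 passed the filter. In ENT+CTLA4+HER2 against ENT+CTLA4, limma called 1.29% of the 621 genes higher and 0.966% lower. Of the 9 growth factor genes, 1 rose and none fell. It was Csf3, which encodes G-CSF, the main growth factor of neutrophils, at 141 and 352 against 137, 82.3, 79.4 and 82.3 (log2 change 1.26 ± 0.32, limma adjusted p = 0.0472). One ENT+CTLA4+HER2 sample lay far above all others and the second was close to the highest ENT+CTLA4 value. The call held under 6 of 16 other settings, and was lost under median rescaling, quantile normalization, the fit of these arms alone, the replicate block and edgeR (adjusted p = 0.0628 in edgeR). The list had a median log2 change of 0.52, against 0.17 over all genes. The 7 kept neutrophil markers had a median of 1.09, with none called, and summed to 51647 and 80103 in ENT+CTLA4+HER2, against 35405 to 54433 in ENT+CTLA4. These sums overlapped, while the mean log2 per sample, in which each marker counts equally, was 9.55 and 7.98 against 7.17 to 7.50. Of the 21 macrophage markers none was called, 10 were positive, and the median was −0.02, with summed levels of 13210 and 13304 against 10449 to 15441. Of 8 epithelial and tumour genes, Itgb4, the integrin β4 chain of epithelial hemidesmosomes, fell (log2 change −0.996 ± 0.26, limma adjusted p = 0.0472), with values of 1062 and 480 against 1168, 1560, 1586 and 1430. This call held under 5 of 16 other settings, and was lost under the same ones and in DESeq2 (adjusted p = 0.0733 in DESeq2). The part of these cell types in the Il34 result was not tested.

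Entinostat alone showed no call against vehicle for any of the 3 genes, and limma called 0% of the 621 genes there (29 had an unadjusted p under 0.05, and edgeR and DESeq2 called 0). All 3 had negative log2 changes. Il34 was at 71.9 to 92.0 in ENT against 97.0 to 120 in vehicle, and the values did not overlap, as for 6.44% of all genes. Its log2 change was −0.30 ± 0.14 (unadjusted p = 0.0470, limma adjusted p = 0.999). The log2 change was −0.25 ± 0.20 for Csf1 and −0.19 ± 0.36 for Csf1r, both with a limma adjusted p of 0.999. The median of all genes was −0.11, and after rescaling to a common median Il34 was at −0.16, Csf1 at −0.10 and Csf1r at −0.04.

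With anti-PD-1 on entinostat, the samples of the arm fell into a low and a high pair for Csf1r. The titles of replicates 1 and 2 carry a letter before the number, and those of replicates 5 and 6 do not. The titles of ENT+CTLA4 and ENT+PD1+CTLA4 differ in the same way, and whether they mark separate sets of samples was not tested. Csf1r was 354 and 394 in ENT+PD1 replicates 1 and 2 and 1009 and 1269 in replicates 5 and 6, against 379 to 468 in ENT. Its log2 change was 0.59 ± 0.36 (limma adjusted p = 0.322), and without replicates 5 and 6 it was −0.21. Csf1 had a log2 change of 0.41 ± 0.20 (limma adjusted p = 0.254), which was 0.04 without them. Il34 had a log2 change of 0.24 ± 0.14 (limma adjusted p = 0.301), which was 0.17 without them. The 0 of 3 members called stand beside 0.322% of all genes, and the median of all genes was itself 0.34 higher in ENT+PD1. After rescaling to a common median the log2 changes were 0.22 for Csf1r, 0.05 for Csf1 and −0.12 for Il34, so the direction of Il34 turned. The macrophage markers summed to 10915 and 10695 in replicates 1 and 2 and to 22967 and 33021 in replicates 5 and 6, against 10127 to 11096 in ENT. None of the 21 was called, and their median log2 change was 0.58. Without replicates 5 and 6 that median was −0.06, and the median of all genes was 0.06.

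Against vehicle, limma called 0% of genes in ENT+PD1 (60 at unadjusted p under 0.05, 0 in edgeR and in DESeq2) and none of the 3. Csf1r had a log2 change of 0.40 ± 0.36 (limma adjusted p = 0.622), which was −0.40 without ENT+PD1 replicates 5 and 6. Csf1 was at 0.16 ± 0.20 and Il34 at −0.06 ± 0.14, with limma adjusted p of 0.695 and 0.857. Without the same samples these were −0.21 and −0.13. The repeat-titled pair, which shares its treatment name with this arm but ran on the second cartridge, had Csf1r at 313 and 432 and Csf1 at 253 and 284, near ENT+PD1 replicates 1 and 2, and Il34 at 60.9 and 78.4, below all 4 ENT+PD1 values.

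With anti-CTLA-4 on entinostat, Csf1r and Csf1 lay above ENT without overlap. Csf1r was 477 to 697 in ENT+CTLA4 against 379 to 468 in ENT, and Csf1 was 316 to 360 against 250 to 306. Neither passed (log2 changes 0.37 ± 0.36 and 0.34 ± 0.20, limma adjusted p = 0.656 and 0.432). Values of 18.4% of all genes did not overlap in this comparison, which spans the cartridges, and limma called 0% (94 at unadjusted p under 0.05, 0 in edgeR, 15 in DESeq2). Il34 was at 0.17 ± 0.14 (limma adjusted p = 0.597). Against vehicle the log2 changes were 0.18 ± 0.36 for Csf1r, 0.09 ± 0.20 for Csf1 and −0.13 ± 0.14 for Il34, with limma adjusted p from 0.760 to 0.883 and no member called beside 1.45% of genes.

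The combination of both checkpoint antibodies showed no call for the 3 genes in any of its 4 comparisons. The share of genes called by limma was 2.09% against vehicle, 0% against ENT (70 at unadjusted p under 0.05, 0 in edgeR and DESeq2), 3.22% against ENT+PD1 and 0% against ENT+CTLA4 (10 at unadjusted p under 0.05, 0 in edgeR and DESeq2). Against ENT+CTLA4, which ran on the same cartridge, the log2 changes were −0.14 ± 0.36 for Csf1r, −0.13 ± 0.20 for Csf1 and −0.07 ± 0.14 for Il34, all with a limma adjusted p of 1.00 after rounding. Against ENT+PD1 they were −0.36 ± 0.36, −0.21 ± 0.20 and −0.14 ± 0.14, with limma adjusted p from 0.636 to 0.649, and without ENT+PD1 replicates 5 and 6 they were 0.44, 0.17 and −0.07. Against ENT they were 0.23 ± 0.36, 0.21 ± 0.20 and 0.10 ± 0.14, and against vehicle 0.04 ± 0.36, −0.04 ± 0.20 and −0.20 ± 0.14. Replicate 2 of the combination was low for Csf1r (275) and Csf1 (206), while its Il34 (94.3) was the second highest of the arm. Its median over all 770 genes was also low, at 32.6, against 53.0 to 79.5 in the other samples of the arm.

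**Figure D3:**
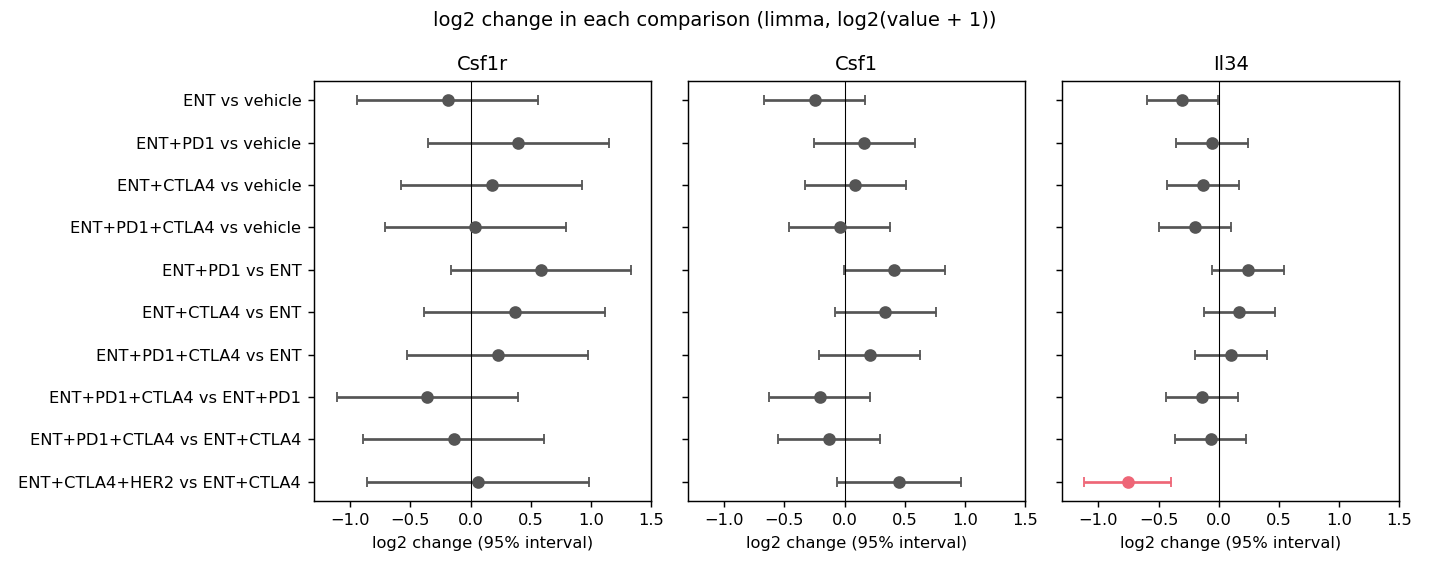
log2 change of each gene in the 10 comparisons of arms (limma on log2(value + 1)), with points for the estimate, bars for the 95% interval and the called comparison in red. The Il34 interval for ENT+CTLA4+HER2 against ENT+CTLA4 runs from −1.12 to −0.39. The Csf1r intervals are the widest.

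The 4 entinostat arms without anti-HER2 allow the effect of anti-PD-1 given with anti-CTLA-4 to be set against its effect without anti-CTLA-4. This interaction was −0.72 ± 0.51 for Csf1r, −0.54 ± 0.28 for Csf1 and −0.31 ± 0.20 for Il34 on the log2 scale, with limma adjusted p of 0.645, 0.595 and 0.630. None passed, beside 0% of all genes (42 at unadjusted p under 0.05, 0 in edgeR and DESeq2). The median of all genes was −0.33. Without ENT+PD1 replicates 5 and 6 that median was −0.08, and the interaction was 0.08 for Csf1r, −0.17 for Csf1 and −0.24 for Il34. The F test across the 5 groups of 4 samples gave limma adjusted p of 0.756 for Csf1r, 0.572 for Csf1 and 0.537 for Il34, and it called 3.22% of genes. Without those samples the adjusted p was 0.746, 0.625 and 0.704 in limma.

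Csf1r and Csf1 varied together between tumours, and Il34 did not follow them. Over the 22 samples, Pearson's r between log2 Csf1r and log2 Csf1 was 0.83 and Spearman's rho 0.89, each with a permutation p of 1e-05, the smallest that 100000 resamples can give (3e-05 adjusted over the 3 pairs). Without ENT+PD1 replicates 5 and 6, the samples farthest from the median of Csf1r, r was 0.79 (permutation p = 9e-05). It was 0.92 on the first cartridge (12 samples) and 0.76 on the second (10 samples, permutation p = 0.0330, adjusted p = 0.0989), and 0.91 for deviations from the arm means. The samples share a scaling factor for all genes, and after rescaling to a common median r was 0.34 (permutation p = 0.119, adjusted p = 0.289). The median r of Csf1r with the other 620 genes was 0.43.

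Between Csf1r and Il34 r was 0.10 and rho 0.25 (permutation p = 0.656 and 0.256, adjusted p = 0.656 and 0.385), and r was −0.12 without the 2 farthest samples. It was 0.49 on the first cartridge and −0.19 on the second. Between Csf1 and Il34 r was −0.17 and rho 0.10 (permutation p = 0.452 and 0.646, adjusted p = 0.656 and 0.646), and r was 0.03 without the 2 samples farthest from the median of Csf1. It was 0.55 on the first cartridge and −0.51 on the second, and 0.34 without the ENT+CTLA4+HER2 samples, which have high Csf1 and low Il34.

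**Figure D4:**
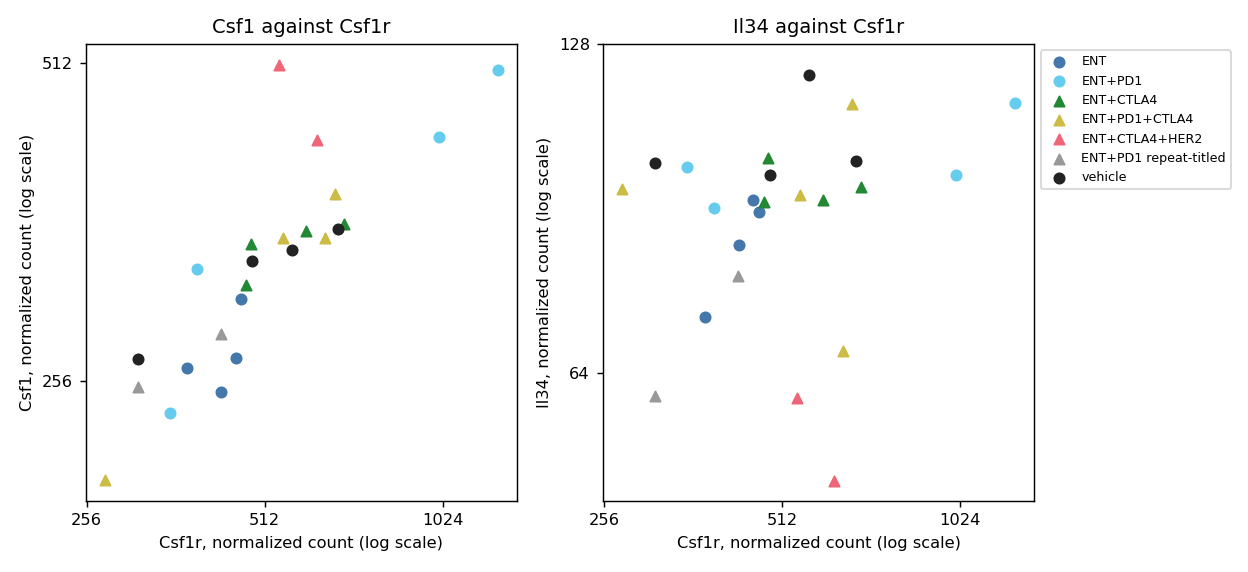
Normalized counts of Csf1 (left) and Il34 (right) against Csf1r, both axes on a log scale, 1 point per sample and 24 in all, with triangles for the second cartridge. Csf1 is high where Csf1r is high (r = 0.83 over 22 samples), with the ENT+CTLA4+HER2 samples above the other points, while Il34 is spread without order (r = 0.10).

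The genes whose levels ran closest to Csf1r included 2 of the listed macrophage markers. By Pearson's r of log2 values over the 22 samples, given as a description, the 5 nearest of 620 were C1qa (0.97), the complement C1q chain made by macrophages, Cd86 (0.95), a costimulatory ligand of antigen-presenting cells, C1qb (0.93), the interferon regulatory factor Irf5 (0.93) and the complement C3a receptor C3ar1 (0.93). Each had r of at least 0.90 on both cartridges. Emr1, which encodes the macrophage marker F4/80, ranked 7 and Cd68 ranked 10. The mannose receptor gene Mrc1 ranked 91, and the 21 markers reached down to Cd163 at 243 and Mertk at 322, where r was 0.40, under the median of 0.43 over all genes. Csf1 itself ranked 52.

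Nearest to Csf1 were Cybb (0.91), the catalytic chain of the phagocyte NADPH oxidase, the complement C5a receptor C5ar1 (0.89), the Fc receptor Fcgr1 (0.89), the lipopolysaccharide co-receptor Cd14 (0.88) and the myeloid lectin Cd33 (0.86), and Csf1r ranked 13. The median r of Csf1 with the other 620 genes was 0.41.

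Il34 had a different neighbourhood. Its nearest genes were Mavs (0.84), the mitochondrial adaptor of RNA sensing, the mast cell tryptase Tpsab1 (0.69), the receptor Notch1 (0.61), Ctsw (0.61), a protease of cytotoxic lymphocytes, and the sialyltransferase St6gal1 (0.58), against a median r of −0.04. Mavs held on both cartridges (0.82 and 0.88), while Ctsw and St6gal1 had r of −0.09 and −0.07 on the first and 0.70 and 0.65 on the second. Mavs, Ctsw and St6gal1 were also called lower in ENT+CTLA4+HER2 against ENT+CTLA4, with log2 changes of −0.76, −1.33 and −0.64 (limma adjusted p = 0.0249, 0.0249 and 0.0472), and those samples enter the correlations. The calls of Mavs and Ctsw each held under 9 of 16 other settings and that of St6gal1 under 5, and all were lost under median rescaling, quantile normalization, the fit of these arms alone and the replicate block.

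Relative to the macrophage markers, the values of the receptor overlapped between arms in all 10 comparisons. The level of log2 Csf1r minus the mean log2 of the 21 kept markers was 1.31 ± 0.182 in ENT+PD1, 1.37 ± 0.137 in ENT, 1.34 ± 0.148 in ENT+PD1+CTLA4, 1.47 ± 0.121 in ENT+CTLA4, 1.49 ± 0.0338 in ENT+CTLA4+HER2 and 1.52 ± 0.268 in vehicle (SD). The differences ran from −0.21 to 0.10. In two-sided exact permutation tests the smallest p that 4 against 4 samples allow is 0.0286, so an adjusted p could pass only if at least 6 of the 10 comparisons reached it. The tests therefore say little, and none passed. For ENT+PD1 against ENT the difference was −0.06, and ENT+PD1 replicates 5 and 6, high in Csf1r, stood at 1.54 and 1.37 relative to the markers. The same holds for the 20 comparisons of a ligand relative to the receptor, where at least 12 would have had to reach the smallest p, and 1 of the 20 had values that did not overlap (Il34 in ENT+CTLA4+HER2 against ENT+CTLA4).

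**Figure D5:**
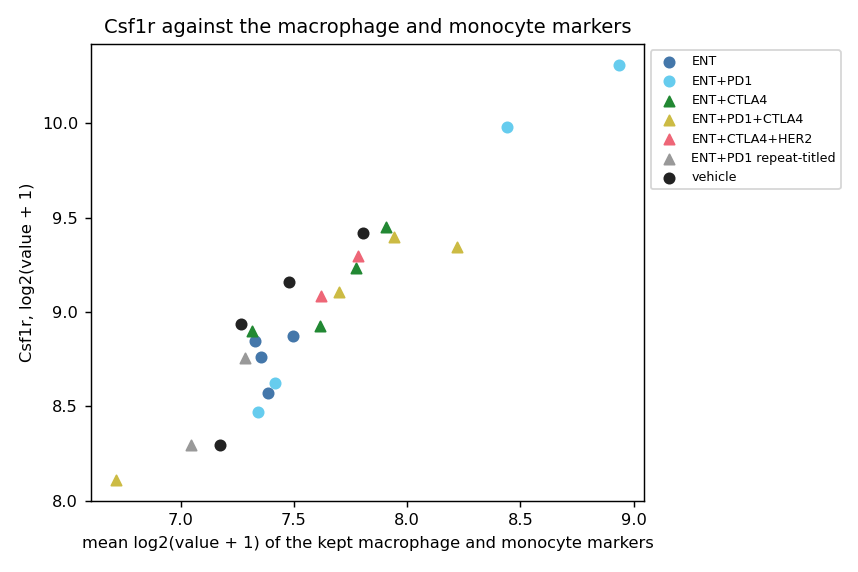
log2(value + 1) of Csf1r against the mean log2(value + 1) of the 21 kept macrophage and monocyte markers, 1 point per sample and 24 in all, with triangles for the second cartridge. The points follow a line, with ENT+PD1 replicates 5 and 6 at its upper end and ENT+PD1+CTLA4 replicate 2 at its lower end. Values are as deposited, without rescaling to a common median.

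The remaining genes around the axis gave no call. Limma called 0% to 3.22% of the 621 genes in each of the 10 comparisons, so no call in such short lists is near that share. None of the 14 kept genes of CSF1R signalling, among them the kinase Syk and the phosphoinositide 3-kinase subunit Pik3cd, passed in any of the 10 comparisons. Nor did any of the 11 kept genes of monocyte recruitment and matrix partners, among them the chemokine Ccl2, Spp1 and Vegfa. In ENT+CTLA4 against ENT the signalling genes had a median log2 change of 0.28, with 11 of 14 positive, against 0.04 over all genes, and Pik3cd was highest at 0.999. In ENT+PD1 against ENT the median was 0.27, against 0.34 over all genes, with Syk highest at 1.08. Without ENT+PD1 replicates 5 and 6 the median was 0.05 and Syk was at 0.24. The recruitment and matrix list had a median of 0.30 in ENT+PD1 against ENT and 0.00 in ENT+CTLA4 against ENT. The T cell chemokine Ccl5 was the highest of its genes in both, at 1.31 and 1.82. Without ENT+PD1 replicates 5 and 6 the median of this list in ENT+PD1 against ENT was 0.12 and Ccl5 was at 0.35. None of the 10 kept T cell markers and none of the 14 fibroblast and endothelial markers was called in any comparison. The T cell list had its largest median in ENT+PD1 against ENT (0.94), and it was −0.04 without replicates 5 and 6. Its summed level was 230 and 117 in ENT+PD1 replicates 1 and 2 and 587.5 and 742 in replicates 5 and 6, against 130 to 239 in ENT.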

How the data were processed

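Limma is the only tool that the submitters' processing notes name, with neither version nor role. How counts were normalized is not given in the sources used here. Values as deposited are normalized signal on a linear scale, scaled to 1 housekeeping geometric mean (346.9). Dividing each sample by 1 factor returned whole counts for 100% of values above 1 (tolerance 0.05), and 82 values stand at exactly 1. The title names the PanCancer panel and the label protocol a myeloid panel.

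The main test was limma 3.58.1 (lmFit, eBayes with trend) on log2(value + 1) of the 621 genes kept, in 1 fit of 22 samples in 6 groups without the repeat-titled pair, with Benjamini-Hochberg adjustment and calls at adjusted p under 0.05. The scale understates changes of weak genes. edgeR 4.0.16 and DESeq2 1.42.0 on recovered counts were alternatives. The pipeline was tested on simulated data. Ligand-to-receptor and receptor-to-marker differences used exact permutation tests, and correlations 100000 resamples. Other alternatives were filter, pseudocount, scaling, samples left out and blocks.

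Named genes were the 3 members, the 5 nearest genes of each, and called or extreme members of 8 lists. Members and lists were chosen with earlier results of these data known.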

Additional observations from a re-analysis of the deposited data

Results flagged for a closer look

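Among 30 groups of 4 values screened, 2 had a sample far from the others by Dixon's criterion, and chance alone flags about 1 in 20. Il34 in vehicle replicate 5 was 119.89, above 97.0 to 99.9 in the other vehicle samples. Csf1r relative to the macrophage markers was lowest in vehicle replicate 1, at 1.12 on the log2 scale, below 1.61 to 1.68 in the other vehicle samples. Without vehicle replicate 5 the sign of Il34 in ENT+PD1 against vehicle turned, to 0.011.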

How the results depend on the processing

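Apart from counts of genes, 392 alternative values kept their direction and their side of the threshold, 7 lost a call and 51 changed sign, and with 1 sample left out these were 546, 5 and 49. No value gained a call, and the cause of the changes was not tested. The limma call of Il34 in ENT+CTLA4+HER2 against ENT+CTLA4 was lost at a log2 change of −0.87 under median rescaling and −0.95 under quantile normalization. It was also lost at −0.76 in a fit of only the 2 groups or with the repeat-titled pair joined without a block, and at −0.67 with the replicate block. It kept its sign with each sample left out (−0.88 to −0.63). Whether replicate numbers pair the samples is not settled. Over 40 same-numbered pairs the correlation of deviations had a median of −0.033 and ran from −0.45 to 0.63, against a median of −0.017 for other pairs. Of 22 samples, 7 correlated best with their own number. The block also turned Csf1r in ENT+PD1+CTLA4 against vehicle to −0.058 and changed no other call of the 3 genes. Without 1 ENT+CTLA4+HER2 sample, the lone one left is assumed to vary like the other groups. The counts of Il34, at 30 to 139 per sample, limit its precision.

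Signs turned as follows, on the log2 scale and with no call; the 2 scalings are median rescaling and quantile normalization, in that order. Against vehicle, Csf1 in ENT+PD1 was −0.053 under median rescaling, −0.029 under quantile normalization and −0.031 in DESeq2. Csf1 in ENT+PD1+CTLA4 against vehicle was 0.050 in DESeq2, 0.095 in edgeR and 0.39 with the cartridge block. With that block, Il34 in ENT+CTLA4 was 0.39 and Il34 in ENT+PD1+CTLA4 was 0.32, both against vehicle. Against ENT, Il34 in ENT+PD1 was −0.12 and −0.19 under both scalings, −0.078 in DESeq2 and −0.038 in edgeR. Under both scalings it was −0.021 and −0.0053 for ENT+CTLA4, and −0.057 and −0.12 for ENT+PD1+CTLA4. Against ENT+PD1, Il34 in ENT+PD1+CTLA4 was 0.059 and 0.075 under both scalings, 0.19 in DESeq2, 0.20 in edgeR, 0.38 with the cartridge block and 0.033 with the pair joined. Csf1 there was 0.081 in DESeq2, 0.071 in edgeR and 0.23 with the cartridge block, and Csf1r 0.46 with that block. Il34 in ENT+PD1+CTLA4 against ENT+CTLA4 was 0.012 in DESeq2 and 0.023 in edgeR. Csf1r in ENT+CTLA4+HER2 against ENT+CTLA4 was −0.056 under median rescaling, −0.10 in DESeq2 and −0.12 in edgeR. The Il34 interaction was 0.080 under both scalings, 0.089 in DESeq2 and 0.061 in edgeR. Leaving out ENT+PD1 replicates 5 and 6 together, chosen after seeing the data, gave −0.40 for Csf1r and −0.21 for Csf1 in ENT+PD1 against vehicle. It gave −0.21 for Csf1r against ENT, 0.44 and 0.17 for Csf1r and Csf1 in ENT+PD1+CTLA4 against ENT+PD1, and 0.075 for the Csf1r interaction. The same omission for list medians, joining the pair without a block, the settings tried for 5 other named genes and dropping the ENT+CTLA4+HER2 samples from correlations were also chosen after seeing the data.

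The correlation of Csf1r and Csf1 was no longer called at r = 0.76 within cartridge 2 and 0.34 under median rescaling. That of Csf1r and Il34 turned to −0.26 under median rescaling, −0.19 within cartridge 2 and −0.12 without the 2 farthest samples. That of Csf1 and Il34 turned to 0.55 within cartridge 1, 0.21 for deviations from the arm means, 0.034 without the 2 farthest samples and 0.34 without ENT+CTLA4+HER2. Csf1r relative to the markers turned to −0.0053 with a pseudocount of 8 in ENT+CTLA4+HER2 against ENT+CTLA4, and to −0.0011 with the negative control mean subtracted in ENT+PD1+CTLA4 against ENT+PD1.

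With 1 sample left out, the log2 change against vehicle ran from −0.12 to 0.011 for Il34 in ENT+PD1, −0.042 to 0.33 for Csf1r in ENT+CTLA4, and −0.18 to 0.33 for Csf1r and −0.14 to 0.16 for Csf1 in ENT+PD1+CTLA4. Il34 in ENT+PD1+CTLA4 ran from −0.0030 to 0.24 against ENT and from −0.25 to 0.0011 against ENT+PD1. In ENT+PD1+CTLA4 against ENT+CTLA4 the range was −0.27 to 0.15 for Csf1r, −0.23 to 0.071 for Csf1 and −0.17 to 0.073 for Il34. Csf1r in ENT+CTLA4+HER2 against ENT+CTLA4 ran from −0.042 to 0.17.

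Csf1 minus Csf1r ran from −0.17 to 0.071 in ENT, −0.19 to 0.044 in ENT+CTLA4 and −0.19 to 0.052 in ENT+PD1+CTLA4, all against vehicle. It ran from −0.096 to 0.057 in ENT+CTLA4 and −0.11 to 0.048 in ENT+PD1+CTLA4 against ENT. In ENT+PD1+CTLA4 it ran from −0.0096 to 0.34 against ENT+PD1 and −0.084 to 0.077 against ENT+CTLA4. Il34 minus Csf1r ran from −0.29 to 0.087 in ENT and −0.55 to 0.023 in ENT+PD1+CTLA4 against vehicle. In ENT+PD1+CTLA4 it ran from −0.44 to 0.14 against ENT, −0.097 to 0.51 against ENT+PD1 and −0.24 to 0.33 against ENT+CTLA4. Csf1r relative to the markers ran from −0.13 to 0.0029 in ENT+PD1 against ENT, −0.18 to 0.0088 in ENT+CTLA4 against vehicle and −0.039 to 0.053 in ENT+CTLA4+HER2 against ENT+CTLA4. In ENT+PD1+CTLA4 it ran from −0.087 to 0.048 against ENT and −0.028 to 0.11 against ENT+PD1.

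Counts of called genes moved as follows. In ENT+CTLA4+HER2 against ENT+CTLA4 limma called 14 genes, 0 under both scalings, in the 2-group fit and with the replicate block, 5 with the pair joined, 23 in DESeq2 and 0 to 23 with 1 sample left out. In ENT+CTLA4 against vehicle the 9 became 0 under quantile normalization, in the 2-group fit, with both blocks and with the pair joined, 21 in DESeq2 and 0 to 22 with 1 sample left out. In ENT+PD1+CTLA4 against vehicle the 13 became 0 under both scalings, in the 2-group fit, in edgeR and DESeq2, with both blocks and with the pair joined, and 0 to 18 with 1 sample left out. In ENT+PD1 against ENT the 2 became 0 under both scalings, in the 2-group fit, in edgeR, with the replicate block, the pair joined or replicates 5 and 6 left out, 1 in DESeq2 and 0 to 26 with 1 sample left out. In ENT+CTLA4 against ENT 0 became 46 in the 2-group fit, 15 in DESeq2 and up to 1 with 1 sample left out, as in ENT+PD1+CTLA4 against ENT and in the interaction. In ENT+PD1+CTLA4 against ENT+PD1 the 20 became 0 under median rescaling, in the 2-group fit, in DESeq2, with the cartridge block or without replicates 5 and 6, 1 under quantile normalization and in edgeR, 3 with the pair joined and 2 to 69 with 1 sample left out. The F test called 20 genes, 1 under quantile normalization, 9 in edgeR, 47 in DESeq2, 6 with the replicate block, 0 with the cartridge block or the pair joined, 7 without ENT+PD1 replicates 5 and 6, and 6 to 57 with 1 sample left out.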
